A study of Mus musculus with 12 samples.

Results

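The genes described here are 10 genes of antigen presentation by the major histocompatibility complex (MHC). They are H2-K1, H2-D1, B2m, Tap1 and Tap2 of the class I pathway and H2-Aa, H2-Ab1, H2-Eb1, Cd74 and Ciita of the class II pathway. They were chosen by symbol, and each was found by the Ensembl gene ID that the GENCODE annotation gives for that symbol. All 10 were among the 39179 gene IDs of the deposited table and among the 16197 that passed a filter on low values. RNA was sequenced from prostates of mice aged 4 months all given paraquat, a herbicide whose redox cycling makes superoxide inside cells. The genotypes given by the labels are +/+ (wild type, 6 libraries) and -/- (null, 6 libraries) for the gene under study, and the strain is a hybrid of 129/SvImJ and C57Bl/6J. No untreated mice were among the libraries used here, so every comparison is between genotypes under the same treatment. The labels do not say which libraries came from separate animals.

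MHC class I molecules sit on the surface of nearly all nucleated cells and show peptides made inside the cell to CD8 T cells. A class I molecule is a heavy chain, such as the products of H2-K1 and H2-D1, bound to beta-2 microglobulin, the product of B2m, and it is loaded with peptides that the proteasome cuts and the TAP1-TAP2 transporter carries into the endoplasmic reticulum. Class II molecules pair an alpha and a beta chain, are guided to endosomes by the invariant chain Cd74, and show peptides from outside the cell to CD4 T cells. They are made mainly by dendritic cells, macrophages and B cells, and epithelial cells can make them under interferon gamma. The transactivators of the NLR family, Ciita for class II and Nlrc5 for class I, act on the promoters of these genes through factors bound at the X box and the Y box.

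The shared promoter layout is shown first, because the genes that carry it did not all behave alike in these data. RefSeq promoter windows on GRCm38.p6, from 250 bases before to 50 after the annotated start, were at hand for 6 of the 10 genes, with 2 windows for H2-K1. The letters TGANG, the core of the cAMP-response element that ends the X box, followed on the same strand by the Y box core ATTGG with starts 24 to 30 bases apart, were searched on both strands. This pair was found before the RefSeq start of B2m, H2-K1, H2-D1, H2-Aa and H2-Eb1, and was not found in the Tap1 window. For H2-D1 the RefSeq start lies inside the GENCODE span (chr17:35262730-35267499), and so does the stretch shown. Of all 32851 promoter windows, 1.83% held such a pair, while 37.4% held ATTGG alone and 89.4% held TGANG alone. The letters and the spacing were settled after these promoters had been read, so the matches are a description of the sequences. In the stretches below, written 5′ to 3′ along the gene, capitals mark both cores. In H2-Eb1 and H2-D1, 2 overlapping copies of TGANG precede the ATTGG, at 27 and 24 bases in H2-Eb1 and at 28 and 25 bases in H2-D1.
B2m, chr2:122147589-122147643, plus strand: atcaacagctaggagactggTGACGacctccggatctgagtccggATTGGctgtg
H2-K1, chr17:34000354-34000408, minus strand: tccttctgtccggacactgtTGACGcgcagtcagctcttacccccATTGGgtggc
H2-D1, chr17:35262970-35263027, plus strand: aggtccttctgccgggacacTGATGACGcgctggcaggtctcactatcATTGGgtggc
H2-Aa, chr17:34287862-34287917, minus strand: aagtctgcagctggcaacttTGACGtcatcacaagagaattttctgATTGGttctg
H2-Eb1, chr17:34305761-34305817, plus strand: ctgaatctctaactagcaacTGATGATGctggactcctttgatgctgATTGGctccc

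B2m is shown over its whole upstream window because it had the largest genotype difference of the 10 genes. Its 250 bases before the start (chr2:122147437-122147686, plus strand) also hold AANNGAAA, the letters searched for an interferon regulatory factor site, and capitals mark that match first and the pair after it.
B2m upstream window: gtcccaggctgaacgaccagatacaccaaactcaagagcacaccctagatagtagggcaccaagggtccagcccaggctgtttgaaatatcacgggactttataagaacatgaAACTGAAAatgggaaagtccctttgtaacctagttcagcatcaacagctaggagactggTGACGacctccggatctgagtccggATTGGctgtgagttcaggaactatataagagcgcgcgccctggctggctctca
AANNGAAA was found in the windows of B2m, H2-K1, H2-D1 and H2-Aa and in 23.9% of all windows, on either strand. TTCNNNGAA, the letters searched for a gamma-activated site, was found in no window of these genes, beside 8.3% of all windows.

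Values are the deposited normalized log2 values, differences are null minus wild type on that scale, and the depth recovered from the table was 14.8 to 21.7 M reads per library. Within each genotype, clustering gave 2 sets, libraries 1 to 3 and libraries 4 to 6. Libraries of 1 set differed by a median of 0.078 to 0.141 per gene (absolute), and those of different sets of 1 genotype by 0.274 to 0.352. Differences were therefore tested with limma both over the 12 libraries (n = 6 per genotype) and over the 4 set means (n = 2 per genotype). A gene was called where the Benjamini-Hochberg adjusted p over all genes tested was under 0.05, and rose and fell are used only of genes called in both fits. Probasin (Pbsn), a secretory product that marks mouse prostate epithelium, ran from 18.12 to 18.76 in wild type and from 10.37 to 11.84 in the null. The 7 seminal vesicle secretory genes examined were all called higher in the null by the fit over libraries, beside 34.1% of all genes tested. The fit over set means called 5 of them higher, beside 2.15% of all genes. In bulk tissue, fewer cells of a type and less RNA per cell cannot be told apart.

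Over the 12 libraries, 4 of the 10 genes, B2m, H2-D1, H2-K1 and Ciita, were called higher in the null, beside 34.1% of all genes tested. Limma called none of the 10 lower, also at an unadjusted p under 0.05, beside 31.8% of all genes. Over the set means none was called higher or lower, beside 2.15% and 1.93% of all genes, and 1 of the 10, B2m, had an unadjusted p under 0.05, as did 31.1% of all genes tested. The same 4 genes had no overlap between the libraries of the genotypes, the null being higher. That pattern was found in 21.5% of all genes tested, and the opposite pattern, found in none of the 10, in 22.7%. The median difference of the 10 genes was 0.05, the same as over all genes tested. A count of 4 in 10 is close to the background, and the genes are described one by one.

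**Figure D1:**
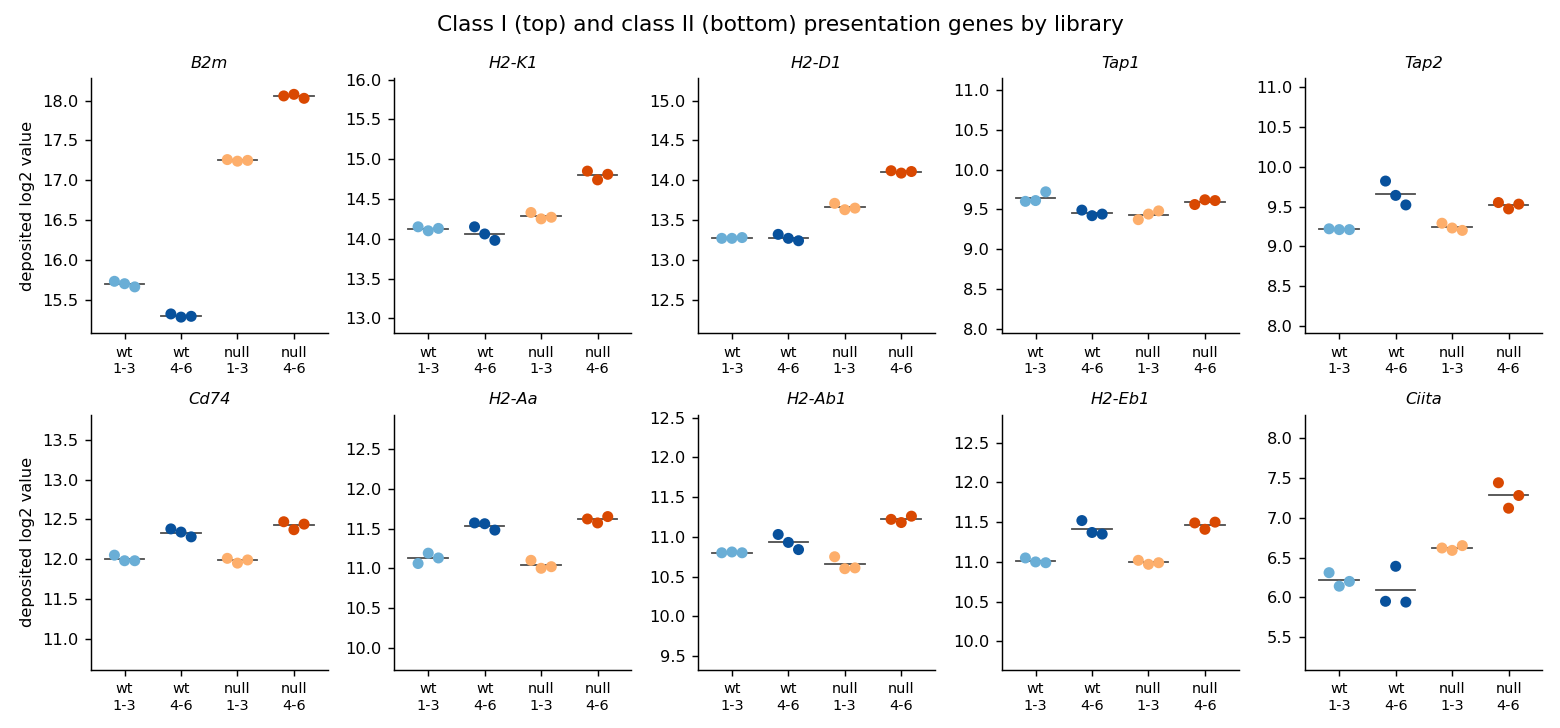
Deposited log2 value of each of the 10 genes in each of the 12 libraries, by set of 3 libraries (wt, wild type), with bars at the set means and a y axis of equal length in every panel. B2m, H2-K1, H2-D1 and Ciita were higher in all null libraries than in any wild-type library, whereas Cd74, H2-Aa, H2-Ab1, H2-Eb1 and Tap2 were higher in libraries 4 to 6 of either genotype.

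B2m, the light chain shared by all class I molecules, stood highest in every null library. B2m (chr2:122147686-122153083, GRCm38) had log2 values of 15.73, 15.70, 15.66, 15.32, 15.28 and 15.29 in the wild-type libraries and 17.26, 17.24, 17.25, 18.06, 18.08 and 18.03 in the null libraries. The genotypes did not overlap, and the gap between the highest wild-type and the lowest null library was larger than any gap within a genotype. The null was higher by 2.16 (SE 0.22 over 12 libraries, 0.75 over set means), a 4.46-fold ratio. Limma's adjusted p was 3.28e-06 over libraries and 0.124 over set means. The reads recovered for B2m were 28575 to 56130 per wild-type library and 158572 to 312464 per null library, so counting error is small beside these differences. B2m made up 0.187% to 0.271% of the summed linear values (2 to the power of the deposited value) in wild type and 0.902% to 1.70% in the null. The sets of 1 genotype differed in opposite directions, libraries 4 to 6 being lower than libraries 1 to 3 in wild type (15.29 and 15.70) and higher in the null (18.06 and 17.25). Over the set means B2m was called when no filter was applied (adjusted p = 0.0145) or without either null set (0.0097 and 0.0231), within a range of 0.0097 to 0.663 over 14 alternatives. A fit over set means without a set leaves that genotype 1 value, assumed to vary like the sets of the other genotype, so the 2 calls without a null set take no account of the spread between the null sets. Under quantile normalization its difference was 3.28.

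H2-D1 and H2-K1, the classical class I heavy chains, were higher in the null by less than B2m. H2-D1 (chr17:35262730-35267499) had values of 13.27, 13.27, 13.28, 13.32, 13.27 and 13.24 in wild type and 13.71, 13.63, 13.65, 14.12, 14.09 and 14.11 in the null. The wild-type libraries lay within a narrow band, and both null sets stood above it. The difference for H2-D1 was 0.61 (SE 0.10 and 0.29 in the 2 fits), a 1.53-fold ratio, with adjusted p = 0.000224 over libraries and 0.206 over set means. H2-K1 (chr17:33996017-34000347) had values of 14.15, 14.10, 14.13, 14.15, 14.06 and 13.98 in wild type and 14.33, 14.25, 14.27, 14.85, 14.74 and 14.81 in the null. Null libraries 1 to 3 were only just above wild type, and most of the H2-K1 difference came from null libraries 4 to 6. That difference was 0.45 (SE 0.12 and 0.36), with adjusted p = 0.00632 over libraries and 0.412 over set means. Without null libraries 4 to 6 it was 0.19. The H2-K1 call was lost with the set as a random block (adjusted p = 0.0517) and without wild-type libraries 4 to 6 (0.0565), in a range of 8.6e-06 to 0.0565 over 27 alternatives. Without null libraries 4 to 6 the H2-D1 difference was 0.39.

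The balance of light to heavy chain RNA differed between the genotypes in every library. B2m exceeded the log2 sum of H2-K1 and H2-D1 by 0.53 to 0.96 in wild type (mean 0.75) and by 2.21 to 2.62 in the null (mean 2.40). The set means were 0.94 and 0.57 in wild type and 2.24 and 2.56 in the null, so the spread between sets was small beside the gap between genotypes. The scale is that of reads per gene and is not divided by transcript length. H2-K1 and H2-D1 together took 0.123% to 0.14% of the summed linear values in wild type and 0.188% to 0.29% in the null. In the longest annotated transcript of each gene, no 100-base window of B2m or H2-K1 was shared with another annotated gene, whereas 4.6% of those of H2-D1 were. Other H2-K1 transcripts share windows with H2-Q10, so reads of both heavy chains could in part be split with their relatives.

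Tap1 and Tap2, the partner chains of the peptide transporter, overlapped between the genotypes. Tap1 (chr17:34187553-34197225) ran from 9.42 to 9.72 in wild type and from 9.37 to 9.62 in the null. Its difference was -0.03, with a 95% confidence interval of -0.18 to 0.12 over libraries and -0.50 to 0.44 over set means. Tap2 (chr17:34203527-34216321) ran from 9.21 to 9.82 in wild type and from 9.20 to 9.55 in the null, with a difference of -0.06 (-0.31 to 0.19 over the libraries). Neither gene was called in either fit. Tap2 was higher in libraries 4 to 6 than in libraries 1 to 3 of both genotypes (set means 9.66 and 9.21 in wild type, 9.52 and 9.24 in the null). For Tap1 the sets differed the other way in wild type (9.45 and 9.64). The sign of both differences depended on the scaling between libraries, and no direction is given for them. Tap1 was called higher over the libraries with library totals (0.28, adjusted p = 0.0124) and lower with the length trend removed (-0.22, 0.0241), in a range of 0.0124 to 0.976 over 27 alternatives. Of the 100-base windows of Tap2, 5.4% were shared with other annotated genes.

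**Figure D2:**
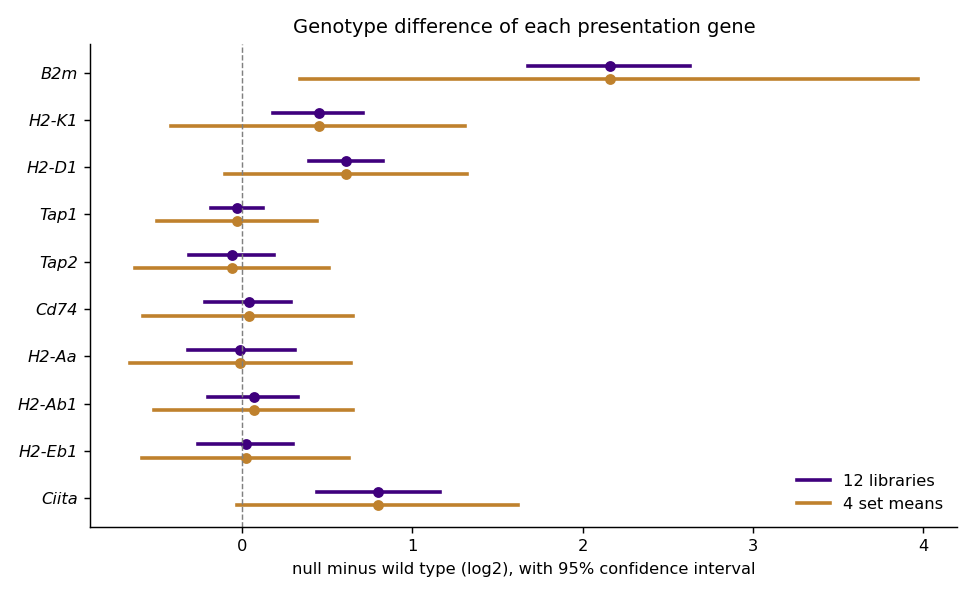
Null minus wild type for each of the 10 genes on the log2 scale, as a point with its 95% confidence interval, from the fit over 12 libraries and from the fit over 4 set means. The intervals of B2m, H2-D1, H2-K1 and Ciita exclude 0 over the libraries, and that of B2m alone does so over the set means (0.34 to 3.97, before adjustment over genes).

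The other genes of class I presentation were taken from lists by function. Of 18 nonclassical and class I-like genes, 14 passed the filter, and 10 of them were called higher and 3 lower over the 12 libraries, beside 34.1% and 31.8% of all genes, with a median difference of 0.46. Over the set means only H2-Q10 was called. H2-Q10, a secreted class I molecule known mainly from liver, fell by 4.20 (SE 0.34 over set means, adjusted p = 0.00657), from set means of 11.34 and 11.12 in wild type to 7.51 and 6.54 in the null. That was 18.4-fold lower in the null and against the direction of most of its list. Without wild-type libraries 4 to 6 its adjusted p over the set means was 0.0621, in a range of 4.23e-07 to 0.0621 over 14 alternatives. H2-Q6, a gene of the Qa-2 family, had a difference of 0.61 (8.41 to 8.55 in wild type, 8.87 to 9.38 in the null), the same size as H2-D1. H2-T10 was higher by 0.83 and H2-T22 lower by 0.50 in the null over the libraries (adjusted p = 2.03e-05 and 0.000103), and neither was called over the set means. These 2 genes encode near-identical ligands of gamma-delta T cells. Of their 100-base windows, 29.7% and 38.1% were shared with other annotated genes, each other among them, so their opposite signs are uncertain. Shared windows were fewer for H2-Q6 (13.0%) and H2-Q10 (8.8%).

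Among 12 class I processing and loading genes, 3 were called higher and 4 lower over the libraries, beside 34.1% and 31.8% of all genes. Their median difference was -0.27. None was called by limma over the set means, where 1 had an unadjusted p under 0.05, beside 31.1% of all genes. Nlrc5, the class I transactivator, ran from 6.00 to 7.17 in wild type and from 7.96 to 8.31 in the null. Its difference was 1.52 (SE 0.21 over libraries, 0.37 over set means), with adjusted p = 5.4e-05 and 0.0736. The wild-type sets were at 7.14 and 6.17, and the Nlrc5 difference was 0.97 with the length trend removed and 1.03 without wild-type libraries 4 to 6. Nlrc5 was called over the set means with library totals (adjusted p = 0.0332) and without null libraries 4 to 6 (0.032), in a range of 0.032 to 0.319 over 14 alternatives. Its level relative to the mean of H2-K1 and H2-D1 averaged -6.56 and -7.50 in the wild-type sets and -5.84 and -6.24 in the null sets, so the wild-type sets differed from each other about as much as the genotypes did (means -7.03 and -6.04). Tapbp, which encodes tapasin, the bridge between TAP and class I, had a difference of 0.56 (adjusted p = 0.00116 over libraries, 0.188 over set means). Canx, the chaperone calnexin that holds new heavy chains, had a difference of -0.37 (0.000174 and 0.328). Psmb9, a catalytic subunit of the immunoproteasome, had a difference of -0.40 (0.00179 and 0.261). The other catalytic subunits were Psmb10 at -0.55 (0.0164 and 0.252) and Psmb8 at 0.00. All 3 constitutive counterparts of the immunoproteasome subunits were called lower over the libraries, beside 31.8% of all genes. None was called by limma over the set means, where all 3 had an unadjusted p under 0.05, beside 31.1% of all genes. Psmb5 had a difference of -0.89, Psmb6 of -0.84 and Psmb7 of -0.70 (adjusted p over set means 0.0808, 0.124 and 0.101).

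Class II chains and Cd74 differed more between the sets of libraries than between the genotypes. The mean of Cd74, H2-Aa, H2-Ab1 and H2-Eb1 was 11.24 in libraries 1 to 3 and 11.55 in libraries 4 to 6 of wild type, and 11.17 and 11.68 in the same sets of the null. Cd74, the invariant chain (chr18:60803848-60812652), had values of 12.05, 11.98, 11.98, 12.38, 12.34 and 12.28 in wild type and 12.01, 11.95, 11.99, 12.47, 12.37 and 12.44 in the null. Each of libraries 4 to 6 was above each of libraries 1 to 3, whatever the genotype. The difference between genotypes was 0.04 for Cd74, with a 95% confidence interval of -0.22 to 0.29 over libraries and -0.58 to 0.65 over set means.

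H2-Aa, the I-A alpha chain (chr17:34282744-34287823), ran from 11.06 to 11.57 in wild type and from 11.00 to 11.65 in the null, with a difference of -0.01 (-0.32 to 0.31 over the libraries). H2-Ab1, its beta chain partner (chr17:34257689-34269419), ran from 10.80 to 11.03 and from 10.60 to 11.26, with a difference of 0.07 (-0.20 to 0.33). H2-Eb1, the I-E beta chain (chr17:34305867-34316674), ran from 10.99 to 11.52 and from 10.97 to 11.50, with a difference of 0.02 (-0.26 to 0.30). None of the 4 genes was called in either fit, and the genotypes overlapped for each. For these 3 genes the intervals together spanned -0.32 to 0.33 over libraries and -0.66 to 0.65 over set means. With library totals as the scale, which moved the median of all genes to 0.37, H2-Ab1 (0.38), H2-Eb1 (0.33) and Cd74 (0.35) were called over the libraries. Cd74 was also called under quantile normalization (0.30) and with the length trend removed (0.22). H2-Ab1 was called higher with the length trend removed (0.29) or without null libraries 1 to 3 (0.35) and lower without null libraries 4 to 6 (-0.22). H2-Ea-ps, the gene of the I-E alpha chain, is defective in strains of the b haplotype such as C57BL/6, and it was listed at 1.30 to 2.72 in all libraries, too low to be tested. The class II genes took 0.0503% to 0.0613% of the summed linear values in wild type and 0.0558% to 0.087% in the null, overlapping ranges that both lie below the share of the heavy chains.

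Ciita, the master regulator of class II transcription, was called higher over the libraries, and the 4 class II genes it controls were not. Ciita (chr16:10480059-10528418) had values of 6.31, 6.14, 6.20, 5.95, 6.39 and 5.94 in wild type and 6.62, 6.59, 6.65, 7.44, 7.12 and 7.28 in the null. Every null library was above every wild-type library, and null libraries 4 to 6 stood apart from the rest. The difference was 0.80 (SE 0.17 and 0.34), a 1.74-fold ratio, with adjusted p = 0.00107 over libraries and 0.170 over set means. Relative to the mean of the 4 class II genes, Ciita ran from -5.67 to -4.93 in wild type (mean -5.24) and from -4.60 to -4.26 in the null (mean -4.47). It was the lowest of the 10 genes, and how the deposited scale treats differences at such levels was not tested. With 32 added to the linear values, the Ciita difference was 0.6. The Ciita call over the libraries was lost under quantile normalization (difference 0.44, adjusted p = 0.0693), with the transcript length trend removed (0.35, 0.163) and with the set as a random block (0.80, 0.112), in a range of 8.28e-05 to 0.163 over 27 alternatives. Without null libraries 4 to 6 the difference was 0.47.

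**Figure D3:**
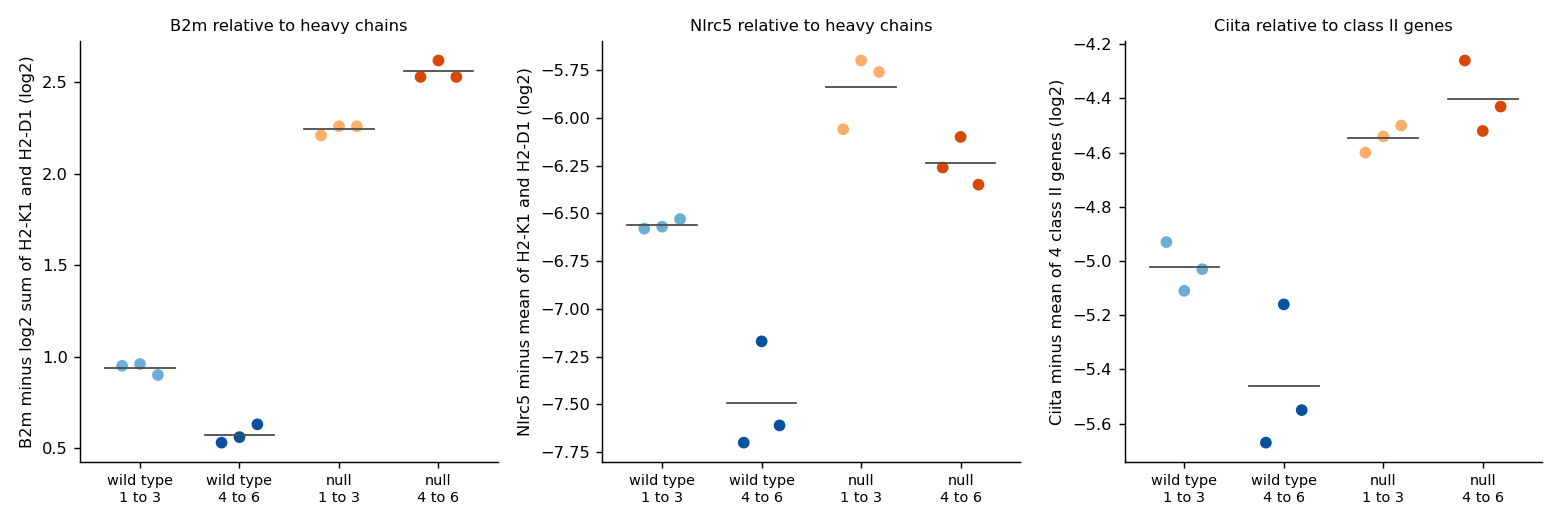
B2m relative to the log2 sum of H2-K1 and H2-D1, Nlrc5 relative to the mean of H2-K1 and H2-D1, and Ciita relative to the mean of Cd74, H2-Aa, H2-Ab1 and H2-Eb1, as log2 differences in each library, by set of 3 libraries with bars at the set means. All 3 quantities were higher in every null library than in any wild-type library, with genotype means of 0.75 and 2.40, -7.03 and -6.04, and -5.24 and -4.47.

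Of 19 other genes of the class II pathway, 18 were tested. Over the libraries 5 were called higher and 3 lower, beside 34.1% and 31.8% of all genes, and the median difference was 0.02. Lgmn, the endosomal protease legumain that trims the invariant chain and antigens, rose by 1.06 (SE 0.19 over set means, adjusted p = 0.0408), from set means of 9.10 and 9.15 in wild type to 10.05 and 10.32 in the null. It was the 1 gene of this list called over the set means, beside 2.15% of all genes called higher there. The call was lost with no filter, without the variance trend and without either wild-type set, in a range of 0.0172 to 0.222 over 14 alternatives. Of the subunits of RFX, the complex that binds the X box, 1 was called higher and 2 lower over the libraries. Rfx5 had a difference of 0.98, Rfxap of -0.68 and Rfxank of -0.26 (adjusted p = 0.00228, 0.00058 and 0.00954 over libraries). None of these 3 was called by limma over the set means (adjusted p = 0.151, 0.145 and 0.425). March1, a ubiquitin ligase that takes class II off the surface of dendritic and B cells, had a difference of 0.68 (0.00035 and 0.188). The peptide editors H2-DMa, H2-DMb1 and H2-DMb2 had differences of -0.12, 0.09 and 0.01 and were not called, and neither were the Y box factors Nfya, Nfyb and Nfyc, at 0.04, -0.10 and -0.08.

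Interferon gamma is the best known inducer of Ciita, of the immunoproteasome and of class I. Of 14 genes of its signalling, 13 were tested. Over the libraries 4 were called higher and 5 lower, beside 34.1% and 31.8% of all genes, and the median difference was 0.26. Ifng itself, with set means of 3.45, 2.14, 3.16 and 3.62, was too low to be tested. The receptor chain Ifngr1 fell by 1.26 (SE 0.19 over set means, adjusted p = 0.0251), from set means of 11.08 and 11.33 in wild type to 9.95 and 9.95 in the null. The receptor kinase Jak2 rose by 1.31 (SE 0.18, adjusted p = 0.0209), from set means of 9.49 and 9.29 to 10.72 and 10.68. Over the set means both calls were lost without the variance trend and without either wild-type set, in ranges of 0.00998 to 0.181 for Ifngr1 and 0.00783 to 0.170 for Jak2 over 14 alternatives each. Ifngr2, the other receptor chain, had a difference of -0.69, and Irf2, a repressor and activator of interferon-responsive promoters, of -0.64 (adjusted p = 3.11e-05 and 6.3e-07 over libraries, 0.101 and 0.0919 over set means). Irf1, which acts on both Ciita and class I promoters, had a difference of -0.25 (adjusted p = 0.0374 over libraries, 0.445 over set means).

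Of 6 costimulatory and checkpoint ligands that accompany presentation, 4 were tested. Over the libraries 3 were called higher, beside 34.1% of all genes, and the median difference was 0.48. Icosl, the ligand of the T cell receptor ICOS, rose by 1.18 (SE 0.22 over set means, adjusted p = 0.0416), from 8.05 to 8.49 in wild type to 9.36 to 9.70 in the null. Its call over the set means was lost with no filter, with totals without the 50 most abundant genes, without the variance trend, without either wild-type set and without null libraries 1 to 3, in a range of 0.0142 to 0.254 over 14 alternatives. Cd86 had a difference of 0.54, Cd274, which encodes PD-L1, of 0.43 and Cd40 of 0.26, and these 3 were not called over the set means (adjusted p = 0.284, 0.373 and 0.695). Over all 72 genes of the pathway lists, 64 were tested, with 25 called higher and 18 lower over the libraries, beside 34.1% and 31.8% of all genes, and 3 higher and 2 lower over the set means, beside 2.15% and 1.93%. Their median difference was 0.10, beside 0.05 over all genes tested.

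**Figure D4:**
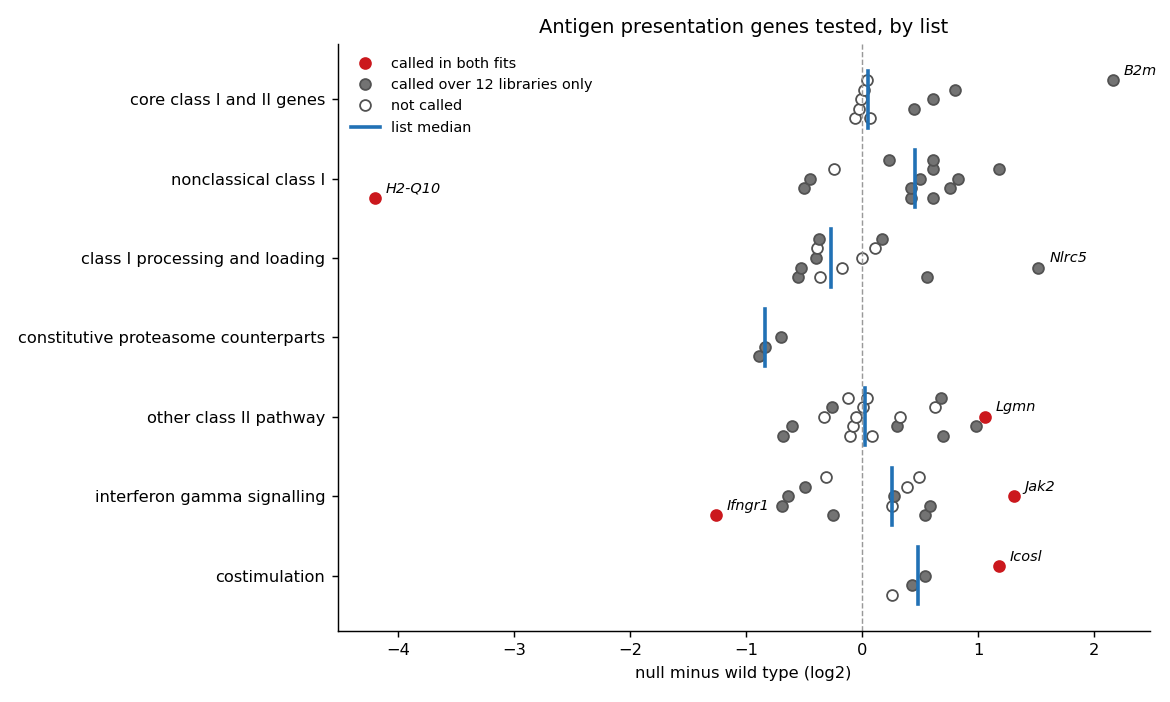
Null minus wild type on the log2 scale for each tested gene of the core class I and II genes and of 6 lists of related genes, with each list's median as a bar. Filled red points, called in both fits, are H2-Q10, Lgmn, Ifngr1, Jak2 and Icosl, and grey points were called over the 12 libraries only.

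Markers of the cells that present antigen are given for comparison. Over the libraries 34.1% of all genes were called higher and 31.8% lower. Over the set means 31.1% had an unadjusted limma p under 0.05. Of 8 dendritic cell markers, 5 were called higher and 1 lower by limma over the libraries and none over the set means (3 at an unadjusted p under 0.05). The log2 of their summed linear values ran from 8.40 to 9.02 in wild type and from 8.52 to 9.15 in the null. The 1 called lower was Batf3 (difference -1.97), the highest of the 8 in wild type, so the overlap of the sums rests in part on it. All other markers of this list had positive differences. Of 10 macrophage markers, 5 were called higher, none lower and none over the set means (4 at an unadjusted p under 0.05), with sums of 12.32 to 12.47 and 12.46 to 13.12. None of 6 B cell markers was called by limma in either fit, also at an unadjusted p under 0.05, and their sums ran from 7.87 to 10.18 and from 8.36 to 9.29. Of 7 T and NK cell markers tested, 2 were called higher over the libraries, with sums of 8.20 to 9.06 and 8.90 to 9.64. The sums of these 4 lists were higher in libraries 4 to 6 than in libraries 1 to 3 of both genotypes, as H2-Aa, H2-Ab1, H2-Eb1 and Cd74 were. Set means were 8.01 and 10.08 in wild type and 8.41 and 9.24 in the null for B cells, 8.48 and 8.90, then 8.60 and 9.05 for dendritic cells, 12.33 and 12.45, then 12.47 and 13.09 for macrophages, and 8.24 and 8.99, then 8.90 and 9.60 for T and NK cells. Not every marker followed its sum. In wild type, Adgre1 (7.53 and 7.09), Csf1r (9.02 and 8.76), Mrc1 (7.97 and 7.51) and Itgam (7.13 and 6.44) were lower in libraries 4 to 6. The other macrophage markers, Cd68, C1qa, C1qb, C1qc, Cd14 and Lyz2, were higher there. Itgam and the dendritic cell marker Cd209a were lower in libraries 4 to 6 of both genotypes. The deposited scale does not show a count of 0 as 0. The lowest values among these lists were those of Ncr1, from 1.44 to 3.78 in wild type and not tested, and Pax5, from 2.87 to 5.95.

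Of 6 general leukocyte markers, 5 were called higher over the libraries, beside 34.1% of all genes. The first of the 6 markers, Ptprc, had a difference of 1.18 (limma adjusted p = 2.38e-05 over libraries, 0.0735 over set means). Their sum ran from 11.58 to 12.31 in wild type and from 14.54 to 15.37 in the null. In the null and in wild-type libraries 1 to 3 most of the sum was Cd52. In wild-type libraries 4 to 6 Cd52 was below the sum of the other markers (10.18 and 10.97). Cd52 is a small surface glycoprotein of lymphocytes that the epididymal epithelium also makes. Cd52 rose by 3.83 (limma adjusted p = 0.0244 over set means). Without Cd52, a sum added after the values were seen, the ranges were 10.19 to 11.03 and 10.77 to 11.46 and overlapped, and libraries 4 to 6 were again higher in both genotypes (set means 10.26 and 10.97 in wild type, 10.80 and 11.44 in the null). Of 6 prostate epithelium markers, 2 were called higher and 3 lower, beside 34.1% and 31.8% of all genes. Their sums were 18.34 to 18.95 in wild type, mostly Pbsn, and 15.32 to 15.63 in the null. Pbsn was a small part of the null sum, at 10.37 to 11.84, below Epcam at 13.32 to 14.25. Of 8 stroma and endothelium markers, 5 were called higher and 2 lower, beside the same shares of all genes. Their sums were 15.76 to 16.10 and 15.53 to 16.21. The seminal vesicle sum ran from 5.75 to 7.81 in wild type and from 16.82 to 21.42 in the null. Within the null it was higher in libraries 1 to 3 than in libraries 4 to 6 (21.41 and 16.84). Svs2, Svs5 and Pate4, all higher in null libraries 1 to 3, carried the sum there. In null libraries 4 to 6 the sum was mostly Svs4. Svs6 (9.17 and 8.11) was also higher in null libraries 1 to 3. Svs3a (11.78 and 13.65), Svs3b (11.38 and 11.65) and Svs4 (14.58 and 16.43) were higher in null libraries 4 to 6, as B2m, H2-K1, H2-D1 and Ciita were. The part of these cell types in the differences of the 10 genes was not tested.

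Levels were also compared between the genes per kilobase of the longest annotated transcript, on the log2 scale. The order of mean levels was the same in both genotypes. B2m was highest (15.72 in wild type, 17.87 in the null), then came H2-K1 (13.19 and 13.64), H2-D1 (12.20 and 12.81) and Cd74 (11.67 and 11.71). H2-Ab1 (10.59 and 10.66) and H2-Eb1 (10.47 and 10.49) followed and overlapped each other within each genotype, and H2-Aa was at 9.64 in both. The place of H2-Aa rests on its longest annotated transcript of 3223 bases, against 1212 for H2-Ab1 and 1669 for H2-Eb1. Before division by length its mean was 11.33 in both genotypes, above H2-Ab1 (10.87 and 10.94) and H2-Eb1 (11.21 and 11.23). Tap2 (7.65 and 7.59) and Tap1 (7.58 and 7.55) also overlapped, and Ciita was lowest at 3.57 and 4.36. The light chain thus stood above either heavy chain in both genotypes, and the transporter genes lay below every class II chain.

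Profiles over the 12 libraries, each centred on its own mean, were compared with the mean profile of the class I genes and with that of the 4 class II genes. Each mean includes the genes it was made from, so their own closeness to it is partly fixed in advance. The class I mean had a genotype difference of 0.62, between B2m at 2.16 and Tap1 and Tap2 at -0.03 and -0.06. It is therefore an average and not a profile that these genes share. By the root-mean-square difference, H2-D1 lay closest to the class I mean among the 5 class I genes (0.022), then H2-K1 (0.0956), while Tap1 (0.35), Tap2 (0.389) and B2m (0.788) lay far from it. The nearest other genes were Lamp1 (0.0395), a glycoprotein of the lysosomal membrane, H2-Q6 (0.0654), Tspan3 (0.0678), Samhd1 (0.075), a nucleotide hydrolase, and Limk2 (0.0778), a kinase, against a median of 0.481 over all genes tested. The class II genes lay at 0.0331 to 0.0745 from their own mean. The nearest others were Hexdc (0.0578), C1qa (0.059), which encodes a chain of complement C1q made by macrophages, Baiap2 (0.0607), Adh5 (0.0636) and Atraid (0.0644), against a median of 0.407. Likeness over 12 libraries in 4 sets rests largely on 4 set means, and many genes can share such a profile.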

How the data were processed

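Poly-A RNA was prepared with a TruSeq kit and sequenced on a HiSeq2000, per the labels' protocols. TopHat, Cufflinks, DESeq and CASAVA 1.8.2, with builds mm9 and GRCm38.p2, are listed in the submitters' processing notes without the role of each. Pairing, strandedness and the treatment of multi-mapping reads are details not given in the sources used here. The authors' deposited values are log2 and normalized between libraries, with a value per gene and library. Of the table's 39179 IDs, 37607 (96.0%) matched GENCODE on GRCm38. Counts could not be recovered for low genes, so no count test was run. Reads of high genes were recovered by a factor and offset per library, and library totals are estimates from them.

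Genes that reached 4 in at least 6 libraries were tested with limma 3.58.1 (trend, two-sided) in R 4.3.3, with Benjamini-Hochberg adjustment over 16197 genes. The second fit used 4 set means. Sets came from clustering within genotype, not from the labels. A chi-square over 704 genes had a median of 0.985 to 5.596 within sets, 40.842 to 87.091 between sets of 1 genotype and 0.455 under sampling noise. On simulated data with 100 genes changed per size among 16197, 99% of changes of 1 (log2) were recovered over 12 libraries and 97% over set means. The simulated sets did not differ.

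The members and lists were chosen with earlier results of these data known. Named genes are the 10 members, up to 4 genes per list with the lowest p over 12 libraries, the first marker of each marker list, and 5 genes per profile by likeness. Others, such as H2-DMa, Psmb8, Psmb10, Rfxank, Irf1, Cd52 and Pbsn, were named after their values were seen. Promoter windows are RefSeq's on GRCm38.p6. Windows of 100 bases were compared between GENCODE transcripts. Python 3.11.15 was used. Other scalings, filters, thresholds, a length correction, a random block for the set, and leaving out each library or set were tried.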

Additional observations from a re-analysis of the deposited data

How the results depend on the processing

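No paired analysis was possible because the labels give no number that pairs the libraries. P-values measure only the spread between these libraries, which may be technical. Other scalings moved the median of all genes from 0.05 to 0.37 (library totals), 0.20 (totals without the 50 most abundant genes), 0.13 (upper quartile), -0.04 (quantile normalization) and -0.07 (length trend removed). Over the 12 libraries, library totals called 8611 genes higher and 2608 lower, against 5518 and 5152. B2m and H2-D1 were called higher over the 12 libraries under each of the 27 alternatives. The cause of the changes below was not tested.

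Of the 10 genes, the number called higher over the 12 libraries was 4, and 8 with library totals and 2 with the set as a random block. The number called lower was 0, and 1 with the length trend removed (Tap1), without wild-type libraries 1 to 3 (Tap2) or without null libraries 4 to 6 (H2-Ab1). Over the set means 1, B2m, was called higher with no filter, without null libraries 1 to 3 or without null libraries 4 to 6. Leaving out a set there leaves 1 value in that genotype, and the spread then comes from the other genotype alone. Of the pathway lists, 25 higher became 13 and 18 lower became 11 with the random block, and 18 lower became 8 with library totals. Leaving out 1 library gave 20 to 26 higher and 15 to 19 lower. Over the set means, 3 higher became 1 with no filter, 0 without the variance trend or without either wild-type set, and 5 without either null set. The 2 lower became 1 without the variance trend or without wild-type libraries 1 to 3, 0 without wild-type libraries 4 to 6, 4 at an adjusted p of 0.10 and 6 without null libraries 4 to 6.

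Signs under the alternatives were compared for the core class I and II genes and for the pathway-list genes named by lowest p. Among the genes compared, signs turned only for Tap1, Tap2, the 4 class II genes and Cd40. None of these was called with the authors' scaling and all libraries. Cell markers and genes named after their values were seen, such as Irf1 and Rfxank, were not compared, and their signs may depend on the scaling. Values were the same in both fits. With library totals, upper quartile and totals without the 50 most abundant genes, Tap1 was at 0.28, 0.04 and 0.11, Tap2 at 0.25, 0.02 and 0.09, and H2-Aa at 0.31, 0.07 and 0.14. Under quantile normalization Tap1 was at 0.02, H2-Aa at 0.19 and Cd40 at -0.12. Without wild-type libraries 1 to 3, Tap1 was at 0.07, H2-Eb1 at -0.18, Cd74 at -0.13 and Cd40 at -0.16. Without wild-type libraries 4 to 6, Tap2 was at 0.16 and H2-Aa at 0.20. Without null libraries 1 to 3, Tap1 was at 0.05, Tap2 at 0.08 and H2-Aa at 0.28. Without null libraries 4 to 6, H2-Ab1 was at -0.22, H2-Eb1 at -0.22, Cd74 at -0.19 and Cd40 at -0.08. Leaving out 1 library gave ranges of -0.06 to 0.00 for Tap1, -0.10 to 0.02 for Tap2, -0.07 to 0.06 for H2-Aa, -0.03 to 0.08 for H2-Eb1 and -0.02 to 0.09 for Cd74.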
